A study of Homo sapiens with 27 samples.

Results

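The high mobility group (HMG) chromatin proteins were followed across 3 states of U937, an established human histiocytic lymphoma line of monocytic character. The family was taken as HMGB1, HMGB2, HMGB3, HMGA1, HMGA2, HMGN1, HMGN2, HMGN3 and HMGN4, and every array probe assigned to 1 of these symbols, or to an older alias, was used. It comprised 10 probes for 6 genes, of 15207 named genes on the array: 4 probes for HMGB1, 2 for HMGA1 and 1 each for HMGB2, HMGB3, HMGN3 and HMGN4. HMGA2, HMGN1 and HMGN2 had no named probe. The family was selected on earlier results of these arrays. HMGB2 was one of the genes that led to the choice, and its intensities were far lower in both treated groups than in untreated cells. HMGB2 is therefore only described, without a test, in both comparisons with untreated cells. Counts without HMGB2 are not thereby shown to be free of that choice.

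The groups were untreated cells, cells given 4 µg/ml lipopolysaccharide (LPS, the outer membrane component of Gram-negative bacteria that Toll-like receptor 4 recognises), and cells given 10 µM PBD150 for 2 h before the same LPS dose. PBD150 inhibits glutaminyl cyclase, the enzyme that forms pyroglutamate at protein N-termini and whose role in inflamed macrophages the study addressed. All groups were cultured for 48 h in serum-containing medium, and each had 3 biological replicates, called cultures here, with 3 technical one-colour arrays per culture. The labels speak of macrophages, but the sources used here name no agent that differentiates U937 cells. The 27 arrays held no group given PBD150 alone. Nothing in the labels says how the cultures were separated, so the p-values measure only the spread between them.

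Values are log2 of the deposited intensity after quantile normalisation, and a change is a difference of 3-culture means on that scale. The noise limit of an array, set at 3 root mean squares of its values below 0, ranged from 12.9 to 18.7 intensity units, with 69.0% to 77.8% of probes above it. Before normalisation the array medians ranged from 41.46 to 100.3. Of 11 measured monocytic or macrophage markers, 10 were above noise on all arrays of every group, and 7 rose with LPS, against 13.6% of named genes. CD14 rose by 6.92, which may be a lower bound because its probe was near the array's largest value on all LPS arrays. The summed log2 level of that list spanned 13.67 to 13.76 in untreated cultures, 16.89 to 17.02 in LPS cultures and 17.07 to 17.09 in PBD150 plus LPS cultures. Among other cell types' markers, CD2, MS4A1, EPCAM and DCN rose and CD79A fell, while the T lymphocyte markers CD3E and LCK stayed near the noise limit. The summed fibroblast list spanned 9.13 to 9.26, 9.33 to 10.01 and 9.74 to 9.98 in the same order, and the B lymphocyte list 10.07 to 10.15, 9.10 to 9.60 and 9.0 to 9.29. The T lymphocyte list spanned 11.15 to 11.35, 11.26 to 12.30 and 11.11 to 11.81, with CD3D making up most of it at a mean of 11.17 in untreated cells. The epithelial list, of which only EPCAM and CDH1 were measured, spanned 4.64 to 5.69, 6.95 to 7.41 and 7.13 to 7.42, and no erythroid marker had a named probe. Their part in the HMG results was not tested. In bulk RNA, fewer cells of a kind and less RNA per cell cannot be told apart.

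HMG proteins are abundant non-histone proteins that bind DNA or nucleosomes and change chromatin's shape. HMGB proteins bend DNA through paired HMG boxes, and HMGB1 also leaves stressed or dying cells and acts as an alarmin on receptors such as TLR4. HMGA proteins bind AT-rich DNA through AT hooks and are abundant in embryonic and transformed cells. HMGN proteins bind the nucleosome core and counter the linker histone H1. HMGB2 and HMGA1 are typically high in dividing cells.

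The RefSeq promoter table held entries for 7 of the 9 genes, and those of 3 measured genes are shown for their differing arrangement of CCAAT boxes, a common element of promoters of dividing cells. Each window runs from 250 bases before to 50 after a RefSeq start on GRCh38.p14, on the gene's strand. Capitals mark CCAAT, or ATTGG where the box lies on the opposite strand. The HMGB1 window is chr13:30465887-30466186 on the minus strand, the HMGA1 window chr6:34236623-34236922 on the plus strand and the HMGB3 window chrX:150983085-150983384 on the plus strand.
HMGB1: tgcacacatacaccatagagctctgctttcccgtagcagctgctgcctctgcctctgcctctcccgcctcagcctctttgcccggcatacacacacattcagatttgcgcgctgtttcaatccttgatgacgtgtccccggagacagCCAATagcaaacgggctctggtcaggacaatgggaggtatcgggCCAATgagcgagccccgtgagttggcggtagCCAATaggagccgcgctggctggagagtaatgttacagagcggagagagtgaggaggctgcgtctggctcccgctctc
HMGA1: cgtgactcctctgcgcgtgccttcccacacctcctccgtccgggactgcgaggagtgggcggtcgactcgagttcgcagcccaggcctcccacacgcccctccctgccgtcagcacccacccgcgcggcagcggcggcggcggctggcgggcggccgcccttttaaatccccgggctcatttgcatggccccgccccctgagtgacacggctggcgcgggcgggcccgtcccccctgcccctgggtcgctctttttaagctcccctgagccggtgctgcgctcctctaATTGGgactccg
HMGB3: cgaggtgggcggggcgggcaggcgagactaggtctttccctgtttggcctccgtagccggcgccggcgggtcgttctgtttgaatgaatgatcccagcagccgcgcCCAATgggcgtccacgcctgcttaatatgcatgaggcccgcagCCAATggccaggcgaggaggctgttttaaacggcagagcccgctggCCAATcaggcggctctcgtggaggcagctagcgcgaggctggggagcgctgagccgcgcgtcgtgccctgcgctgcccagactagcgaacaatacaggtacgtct
HMGB1 and HMGB3 each held 3 boxes, at -103, -59 and -28 and at -144, -101 and -55 from the start, whereas HMGA1 held 1, at 39 after it. A CCAAT box on either strand occurred in 34.6% of 35116 RefSeq promoter windows of that length. The HMGA1 window also held 5 GC boxes (GGGCGG on either strand, in 45.0% of windows) and was 72.0% G or C, against 58.7% for HMGB1 and 65.3% for HMGB3. The E2F-type motif TTTNNCGC, searched on both strands and present in 6.89% of windows, was in none of the windows of these 7 genes. HMGB2 and HMGA2 had no window and were not searched. The other windows of HMGB1, HMGA1 and HMGB3 held 0 or 1 CCAAT box each. These matches describe letters only and show no binding.

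With LPS the family moved mostly downwards. Of its 10 probes, 7 were lower than in untreated cells at a Benjamini-Hochberg adjusted p under 0.05 and 0 were higher, where 11.8% of all 30968 probes were called lower and 10.6% higher. Without HMGB2 the count was 6 of 9. The median change of the 10 probes was -1.80 (-1.60 without HMGB2), against 0.08 over all probes. The values of 8 probes (7 of 9 without HMGB2) did not overlap between the groups and were lower with LPS, and 0 were higher, against 20.0% and 23.4% of all probes. Of the 6 genes by their brightest probe, 4 were lower (3 of 5 without HMGB2), against 15.4% of named genes. They include HMGN3, whose probe was above noise on only 4 of 9 untreated and 2 of 9 LPS arrays. Several HMGB1 probes share 1 transcript, so the probe counts are not independent.

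**Figure D1:**
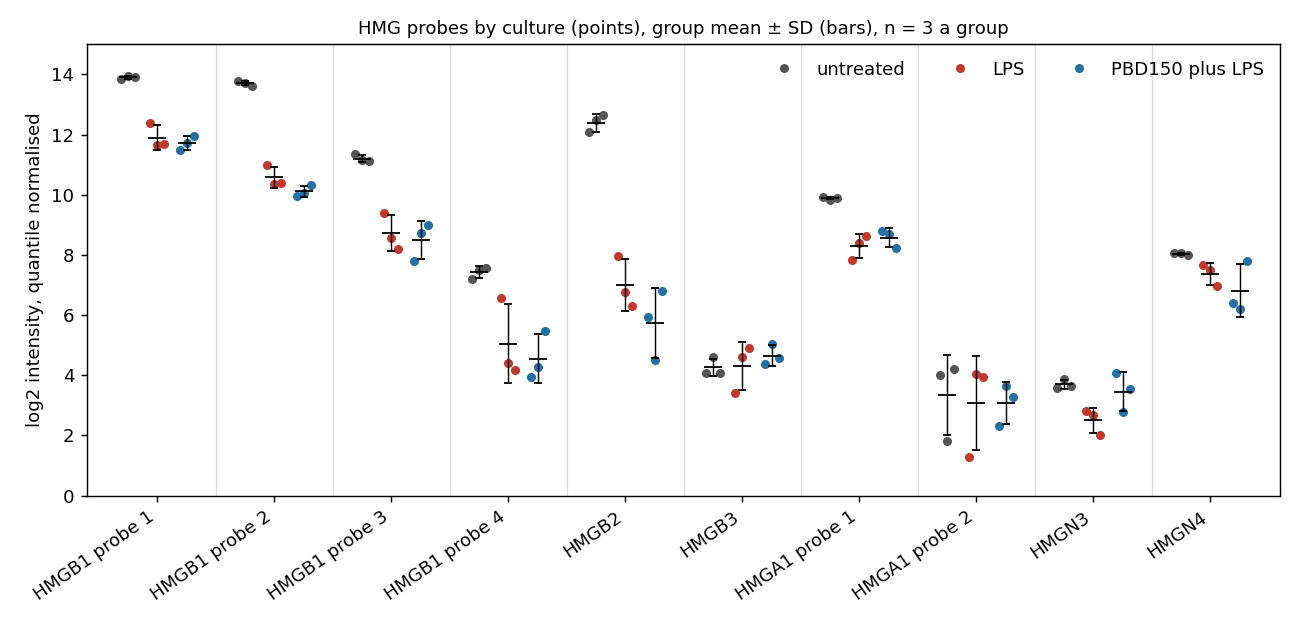
Log2 normalised intensity (vertical axis) of the 10 HMG probes in each culture, by group; bars are the mean ± SD of 3 cultures. HMGB1 probes 1 to 3 and HMGB2 sit highest in the untreated cultures, and HMGB3, HMGN3 and the second HMGA1 probe lie near or below the noise limit throughout.

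HMGB1, the DNA-bending protein and alarmin (chromosome 13, 30456704 to 30617597 on GRCh38.p14), fell with LPS on all 4 probes. Its brightest probe read 13.85, 13.96 and 13.91 in the untreated cultures, 12.37, 11.65 and 11.68 with LPS, and 11.48, 11.71 and 11.94 with PBD150 plus LPS. Every untreated culture lay above every treated one, and the treated groups overlapped. The change with LPS was -2.01 ± 0.24 (SE, n = 3; 4.02-fold; limma adjusted p = 0.000616).

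The second HMGB1 probe showed a steeper drop. It read 13.77, 13.71 and 13.63 untreated, 10.99, 10.35 and 10.38 with LPS, and 9.95, 10.07 and 10.32 with PBD150 plus LPS, so that the 3 groups did not overlap. With LPS it fell by 3.13 ± 0.22 (8.75-fold; limma adjusted p = 5.46e-05). The difference between the probes was nearly even within a group: the second minus the first was -0.08, -0.25 and -0.28 untreated, -1.38, -1.30 and -1.30 with LPS, and -1.52, -1.64 and -1.63 with PBD150 plus LPS. Both probes thus gave the same direction with different sizes. Probe sequences and positions were not used here, and RefSeq names 50 HMGB1 pseudogenes. Cross-hybridisation was not tested.

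The third HMGB1 probe read 11.34, 11.16 and 11.11 untreated, 9.40, 8.57 and 8.21 with LPS, and 7.79, 8.73 and 8.98 with PBD150 plus LPS. Its change with LPS was -2.48 ± 0.38 (limma adjusted p = 0.00216). The fourth and dimmest read 7.19, 7.50 and 7.57, then 6.56, 4.39 and 4.18, then 3.93, 4.26 and 5.46, and was above noise on 9, 8 and 6 of 9 arrays. LPS replicate 1 stood well above its group mates there. The change with LPS was -2.37 ± 0.63 (limma adjusted p = 0.0283). That call was lost without untreated replicate 1, 2 or 3 and without LPS replicate 2 or 3, and under the replicate block, at adjusted p of 0.0611 to 0.0950 (range over all 17 alternatives 0.000128 to 0.0950).

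HMGB2, the HMGB1 relative that is abundant in dividing cells (chromosome 4, 173331376 to 173334358), had the widest range of the family. It read 12.07, 12.47 and 12.65 in untreated cultures, 7.97, 6.76 and 6.30 with LPS, and 5.92, 4.51 and 6.81 with PBD150 plus LPS. Untreated cultures stood far above the rest, and the treated groups overlapped. The group means were 12.40 ± 0.30, 7.01 ± 0.86 and 5.75 ± 1.16 (SD, n = 3). The deposited intensities behind them ran from 3317 to 6149, from 96.25 to 283.4 and from 23.43 to 117.7 in the same order.

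HMGB2 differed from untreated cells by -5.38 ± 0.60 (SE; 41.7-fold lower) with LPS and by -6.65 ± 0.60 (101-fold lower) with PBD150 plus LPS. Among the 30968 probes the first ranked 3 from the lowest and the second ranked 1. Those ranks belong to the reason the family was chosen and support nothing further. The HMGB2 probe was above noise on 9 of 9 untreated, 9 of 9 LPS and 8 of 9 PBD150 plus LPS arrays. With LPS the change was thus measured on both sides. PBD150 plus LPS replicate 2 lay close to the noise limit, at 16.74 to 28.04 units against limits of 17.29 to 18.72 on its arrays. The change with PBD150 plus LPS was -6.03 without that culture and -6.2 with a pseudocount of 16, so the 101-fold figure depends on values near noise.

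The distance between HMGB2 and HMGB1 restates the HMGB2 values, which helped lead to the choice of the family. It is given as a description only. HMGB2 minus the brightest HMGB1 probe was -1.78, -1.49 and -1.26 untreated, -4.40, -4.88 and -5.38 with LPS, and -5.56, -7.20 and -5.13 with PBD150 plus LPS. This difference within a culture, taken on means of its 3 technical arrays, shows unequal change only, since levels of different probes are not comparable. It changed by -3.38 with LPS and by -4.45 with PBD150 plus LPS.

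HMGB3, the X-linked HMGB gene (X chromosome, 150980507 to 150990771), lay near the noise limit, above it on 7 of 9, 7 of 9 and 8 of 9 arrays. It read 4.08, 4.60 and 4.09 untreated, 3.40, 4.59 and 4.90 with LPS, and 4.36, 5.03 and 4.56 with PBD150 plus LPS, with all groups overlapping. The change with LPS was 0.04 ± 0.39 (95% interval -0.86 to 0.93; limma adjusted p = 0.959).

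HMGA1, the AT-hook protein (chromosome 6, 34236873 to 34246231), also fell with LPS. Its brighter probe read 9.93, 9.84 and 9.90 untreated, 7.84, 8.40 and 8.62 with LPS, and 8.81, 8.70 and 8.22 with PBD150 plus LPS. The untreated cultures were tightly grouped and above all treated ones. The change with LPS was -1.60 ± 0.25 (3.04-fold; limma adjusted p = 0.00244). The dimmer probe was above noise on 5, 3 and 0 of 9 arrays, and gave -0.26 ± 0.87 with LPS (95% interval -2.25 to 1.73).

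Of the nucleosome-binding HMGN genes, HMGN3 passed the test with LPS on values mostly below the noise limit, and HMGN4 did not pass. HMGN4, which encodes a protein close to HMGN2 (chromosome 6, 26538366 to 26546933), read 8.07, 8.05 and 8.01 untreated, 7.67, 7.49 and 6.97 with LPS, and 6.40, 6.21 and 7.81 with PBD150 plus LPS. On this normalised scale all treated cultures were below all untreated ones, and HMGN4 is among the probes counted without overlap. On the log2 scale as deposited, untreated replicate 1 (7.64) lay below LPS replicates 1 and 2 (7.80 and 7.70). It also lay below PBD150 plus LPS replicate 3 (7.88). The change with LPS was -0.67 ± 0.40 (95% interval -1.59 to 0.26; limma adjusted p = 0.289).

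HMGN3 (chromosome 6, 79201245 to 79234682) read 3.59, 3.86 and 3.63 untreated, 2.80, 2.68 and 2.01 with LPS, and 4.07, 2.77 and 3.53 with PBD150 plus LPS. It was above noise on only 4, 2 and 5 of 9 arrays. Its LPS culture means, 5.602 to 11.16 deposited units, lay below the noise limits of the LPS arrays, 15.96 to 18.65. The change with LPS was -1.20 ± 0.35 (limma adjusted p = 0.0392). That call was lost under 10 of 16 alternatives, including leaving out any untreated culture, LPS replicate 2 or 3, or PBD150 plus LPS replicate 3, with adjusted p between 0.0129 and 0.304 over all 16.

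PBD150 before LPS gave no called change in the family against LPS alone. With limma 0 of 10 probes passed, as did 0.0% of all probes; 1 of 10 had an unadjusted p under 0.05, against 1582 of the 30968. A fit on all 27 arrays with culture as a random block called 13 probes lower and 1 higher, of which 0 were HMG probes. The second HMGB1 probe was the only one whose groups did not overlap, lower with PBD150, against 4.29% of all probes lower and 3.69% higher. Its difference was -0.46 ± 0.22 (95% interval -0.97 to 0.04; limma adjusted p = 0.906).

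The 95% intervals give the differences that these cultures leave possible. For HMGB1's brightest probe the difference from LPS was -0.19 (95% interval -0.74 to 0.36) and for HMGA1's 0.29 (-0.29 to 0.87). For HMGB2 it was -1.27 ± 0.60 (-2.65 to 0.11; limma adjusted p = 0.906), ranging from -0.65 without PBD150 plus LPS replicate 2 and -0.79 without LPS replicate 1 to -1.80 without PBD150 plus LPS replicate 3. HMGN4 differed by -0.57 (-1.49 to 0.36), and by -1.07 without PBD150 plus LPS replicate 3 and -0.27 without replicate 2 of that group, and HMGB3 by 0.35 (-0.54 to 1.24). HMGN3 had the lowest unadjusted limma p, 0.0233, at 0.96 ± 0.35, with values near or below noise and an adjusted p of 0.906.

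**Figure D2:**
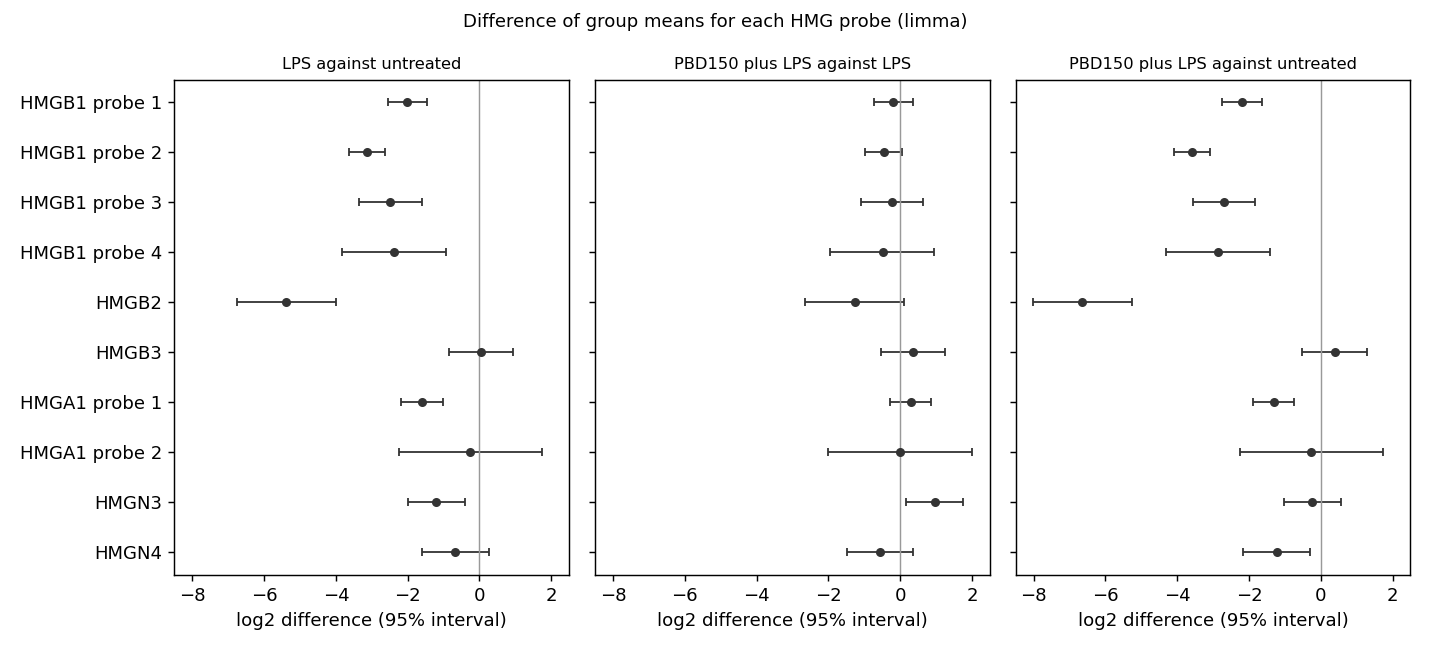
Log2 change (horizontal axis) of each HMG probe in the 3 comparisons, with 95% intervals from the limma fit. HMGB1 and the brighter HMGA1 probe lie to the left of 0 against untreated cells, and all intervals against LPS except that of HMGN3 include 0. Against untreated cells HMGB2 also lies to the left of 0. Its intervals in those comparisons are a description and not a test, since its values were among those that led to the choice of the family.

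Against untreated cells, PBD150 plus LPS gave 6 of 10 probes lower and 0 higher (5 of 9 without HMGB2), where 13.5% of all probes were lower and 12.6% higher. The median was -1.76 (-1.31 without HMGB2), against 0.11 over all probes. The values of 7 probes (6 of 9 without HMGB2) were lower without overlap and 0 higher, against 21.3% and 24.0% of all probes. By their brightest probe, 3 of the 6 genes were lower (2 of 5 without HMGB2), against 17.9% of named genes. This comparison shares its untreated cultures with the one for LPS. HMGB1 fell on its 4 probes, by -2.20, -3.59, -2.70 and -2.87 (limma adjusted p of 0.000322, 2.48e-05, 0.00118 and 0.011) and HMGA1's brighter probe by 1.31 (limma adjusted p = 0.00567). HMGN4 differed by -1.23 ± 0.40 (limma adjusted p = 0.0548). It passed under 5 of 17 alternatives, over which the adjusted p ranged from 0.00218 to 0.166. With all cultures kept these were a pseudocount of 16 (0.0199), leaving out dim probes (0.0254), the random culture block (0.0101) and array weights (0.00346). Without PBD150 plus LPS replicate 3, whose value of 7.81 was close to untreated cells, the change was -1.74 (adjusted p = 0.00218). HMGN3 and HMGB3 differed by -0.24 and 0.39, at limma adjusted p of 0.66 and 0.51.

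In both treated groups 1 culture held the smallest drops of several HMG probes. LPS replicate 1 and PBD150 plus LPS replicate 3 had the smallest drops of their groups in all 4 HMGB1 probes, HMGB2 and HMGN4, but the largest in the brighter HMGA1 probe. Relative to the untreated mean, HMGB2 lay at -4.42, -5.63 and -6.09 in the LPS cultures and at -6.48, -7.89 and -5.59 in the PBD150 plus LPS cultures. For the brighter HMGA1 probe they lay at -2.05, -1.49 and -1.27, and at -1.08, -1.19 and -1.67. The median of the monocytic markers was also highest in these cultures, at 2.16 against 1.59 and 1.53 with LPS, and at 1.79 against 1.23 and 1.40 with PBD150 plus LPS. The median of the proliferation list went opposite ways in them: it was the least lowered in LPS replicate 1, at -2.25 against -2.34 and -2.41, and the most lowered in PBD150 plus LPS replicate 3, at -2.63 against -2.36 and -2.15. The dimmer HMGA1 probe, near noise, was lowest in LPS replicate 1, at -2.07, but lay at -0.06 in PBD150 plus LPS replicate 3, against -1.04 and 0.30. The pattern was noticed after the values were seen and rests on 1 culture per group. Over all probes, deviations from the group mean in LPS replicate 1 and PBD150 plus LPS replicate 3 correlated at r = 0.189. That was the highest r of any pair of cultures from different groups, but LPS replicate 3 and PBD150 plus LPS replicate 1 gave 0.182. Deviations from a mean of 3 cultures sum to 0, so these r are not independent. No conclusion is drawn from them. The relation of the pattern to these lists was not tested.

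**Figure D3:**
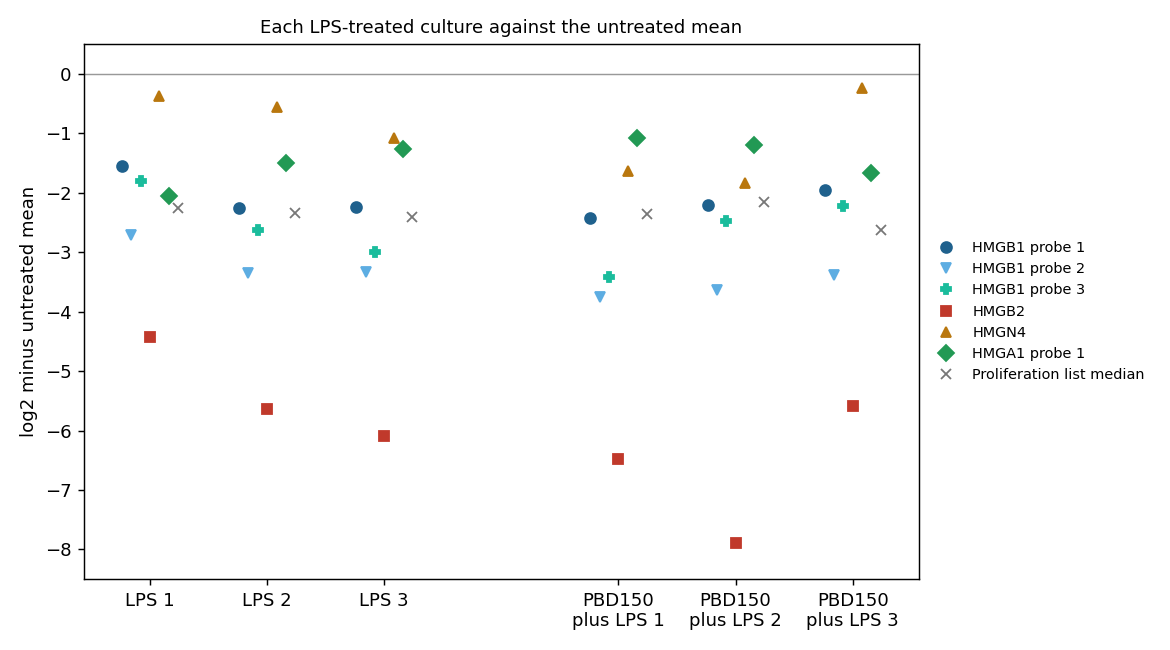
Difference of each treated culture from the untreated mean (vertical axis, log2) for HMG probes and for the median of the proliferation list; LPS cultures are on the left and PBD150 plus LPS cultures on the right. LPS replicate 1 and PBD150 plus LPS replicate 3 show the smallest HMGB2 drops, -4.42 and -5.59, and the largest drops of the brighter HMGA1 probe, -2.05 and -1.67.

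Genes tied to cell division moved downwards beside the family. All 10 measured genes of a 12-gene proliferation list fell with LPS and with PBD150 plus LPS, against 15.4% and 17.9% of named genes called lower, with medians of -2.47 and -2.38 (0.05 and 0.06 over all named genes). With LPS the mitotic kinase PLK1 changed by -2.73, the proliferation antigen MKI67 by -2.54 and the cyclin CCNA2 by -3.32. Its part in the HMG changes was not tested.

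Receptors and release factors of HMGB1 moved in both directions. Of 15 measured genes of 17, 4 rose and 2 fell with LPS, against 13.6% and 15.4% of named genes. The median was 0.04, near the 0.05 of all named genes. The share that fell was near that of all named genes, so it is not a result about the list. The receptors TREM1, HAVCR2 and TLR2 rose by 5.08, 3.07 and 2.96, and the inflammasome protease CASP1 by 1.40. The nuclear export receptor XPO1 changed by -1.11 and PARP1, which modifies HMGB1 in damaged cells, by -1.54. TLR4 changed by 0.09 ± 0.20 (limma adjusted p = 0.806), and the receptor gene AGER had no named probe. With PBD150 plus LPS the counts against untreated cells were also 4 and 2, against 15.3% and 17.9% of named genes.

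A list of SET complex members and other genes linked to HMGB2 had 5 of 11 genes measured, of which 3 fell with LPS, against 15.4% of named genes, with a median of -1.34. ANP32B and APEX1, which belong to the SET complex, changed by -2.16 and -1.34. GZMA, the protease granzyme A that attacks that complex, changed by -2.04, and the recombinase genes RAG1 and RAG2 by 0.52 and -0.43, at limma adjusted p of 0.526 and 0.439. Histone chaperones and nucleosome remodellers gave 7 of 12 lower and 0 higher with LPS, against 15.4% and 13.6% of named genes, with a median of -1.11. The chaperones ASF1A and HIRA changed by -2.12 and -1.80 and the remodeller SMARCA5 by -2.91.

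Other proteins with HMG boxes gave 5 of 22 lower and 1 higher with LPS, against 15.4% and 13.6% of named genes, with a median of 0.04, near the 0.05 of all named genes. The chromatin factor SSRP1 changed by -1.72 and the mitochondrial DNA-binding protein TFAM by -1.27. SP140 was the 1 that rose, by 3.24. It and SP110, at 0.82 (limma adjusted p = 0.0509), are nuclear body proteins and not typical HMG-box proteins. Both lie above the median of 0.04, which would be lower without them. Linker histones, which HMGN proteins counter, gave 0 of 8 calls in either direction by limma with LPS (2 at an unadjusted p under 0.05), with H1-1 nearest at 0.57 (adjusted p = 0.0584). With PBD150 plus LPS, H1-1 rose by 0.62 (limma adjusted p = 0.0381). Against LPS alone, PBD150 gave 0 calls in every list by limma, with between 0 and 2 genes of a list at an unadjusted p under 0.05.

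The genes whose values across the 9 cultures were most like those of HMGB2, among 11411 named genes above noise in at least 1 group, were MTFR2, PRMT3, TIMM21, LSG1 and RFC3, with Pearson r of 0.9946 to 0.9968. PRMT3 is an arginine methyltransferase and RFC3 a clamp-loader subunit of DNA replication. In all, 868 genes had r over 0.95 with HMGB2, and the 3-group structure is shared by the points. For HMGA1 the nearest were PPIP5K2, NUDT8, DERL3, H2AX and QTRT1, with r of 0.9877 to 0.9918, and 185 genes had r over 0.95.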

How the data were processed

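RNA of U937 cells was hybridised to Phalanx Human OneArray slides, labelled with Cy5, per the labels' protocols. The values analysed are the authors' deposited intensity per probe on a linear scale, with negative values, for 27 arrays and 30968 probes; the sources used here do not name the scanner or background correction. No array pair held identical values (0). Values below 1 were set to 1, log2 was taken, arrays were quantile normalised, and the 3 arrays of a culture averaged. A group-means model on 9 cultures was fitted with limma 3.58.1 in R 4.3.3, two-sided, with Benjamini-Hochberg adjustment over all probes at 0.05. The median standard deviation among cultures was 0.206, 0.365 and 0.373 for untreated, LPS and PBD150 plus LPS. Of the probes, 17397 carried 1 gene symbol and 13571 none, with 2645 symbols updated through RefSeq. Where 1 value per gene was needed, the brightest probe was taken. All members were named, up to 3 genes per list by smallest p (others were chosen after their values were seen), and the 5 genes most like HMGB2 and HMGA1. Members and lists were chosen with earlier results of these data known. The fit was tested on simulated data. The closing section gives the alternatives.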

Additional observations from a re-analysis of the deposited data

How the results depend on the processing

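For most probes, 17 alternatives were run. No HMG count moved by more than 1.5 times: between 5 and 7 probes were lower with LPS and between 6 and 7 with PBD150 plus LPS, with 0 higher, and 0 passed against LPS alone. Same-numbered cultures did not deviate together (0 of 9 pairs with r over 0.1). LPS and PBD150 plus LPS cultures gave r of -0.219 for replicate 1 and -0.16 for replicate 3. The fit with a replicate block gave 5 and 6 lower. Scaling moved the median of all probes with LPS from 0.08 to 0.41 as deposited and to -0.07 after median centring; all-probe calls went from 3664 lower and 3292 higher to 2205 and 5935 as deposited, and 3806 and 2279 after centring. HMGB1, HMGB2 and the brighter HMGA1 probe stayed lower than untreated cells under every one. As a description, HMGB2 minus HMGB1 changed by -3.44 to -3.19 with LPS and by -4.45 to -4.01 with PBD150 plus LPS under the scalings. Signs turned only for changes that had not passed the test, and the cause was not tested. The second HMGA1 probe with LPS gave 0.05 as deposited, 0.76 with array weights and -1.03 to 0.64 leaving out 1 culture; with PBD150 plus LPS it gave 0.09 with array weights and -1.03 to 0.17, and against LPS -0.91 to 0.48. HMGB3 with LPS gave 0.41 as deposited, -0.07 after median centring and -0.26 to 0.49, and HMGN3 with LPS gave -0.37 with the pseudocount of 16, which shrinks changes near noise. Leaving out 1 culture, differences from LPS ranged from -0.32 to 0.05, -0.48 to 0.13 and -0.95 to 0.26 for HMGB1 probes 1, 3 and 4, from -0.57 to -0.25 for HMGB1 probe 2, from 0.07 (without LPS replicate 1) to 0.47 for HMGA1 probe 1, from -1.07 to -0.27 for HMGN4 and from -0.10 to 0.65 for HMGB3, and HMGN3 against untreated cells from -0.54 to 0.10. Probes near or below noise (HMGB3, HMGN3, the second HMGA1 probe) limit what can be said of those genes.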

Other observations

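HMGA2, the embryonic AT-hook gene that let-7 microRNAs repress, had no named probe, but all 12 genes listed around that axis were measured. With LPS 2 fell and 0 rose, with a median of -0.33 against 0.05 over all named genes. That share is near the 15.4% of all named genes called lower (13.6% higher), so it is not a result about the list. Those that fell were the cyclins CCNA2, at -3.32, and CCNB2, at -1.83 (limma adjusted p = 0.000125 and 0.00182), which are cell-cycle genes rather than regulators of let-7. The RNA-binding proteins LIN28A and LIN28B, which block let-7 maturation, gave 0.62 ± 1.12 and -0.31 ± 0.62, both near or below the noise limit. The RNA-binding proteins IGF2BP1, IGF2BP2 and IGF2BP3 gave 1.05, -0.57 and -0.54 at limma adjusted p of 0.175, 0.388 and 0.298. With PBD150 plus LPS the counts were again 2 and 0 against untreated cells, where 17.9% of named genes were lower and 15.3% higher. By limma 0 passed against LPS alone. The 1 gene at an unadjusted p under 0.05 was DIS3L2, at 1.37 ± 0.49, with all its values below noise.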
